A study of Rattus norvegicus with 2 samples.

Results

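The tubulins described here are 10 genes, 4 alpha (TUBA1A, TUBA1B, TUBA1C, TUBA4A), 5 beta (TUBB, TUBB2A, TUBB3, TUBB4B, TUBB6) and TUBG1, the gamma tubulin. They were picked out by symbol in the array's annotation, where 21 of 54613 probe sets carry at least 1 of these symbols. Of these, 20 name 1 gene and 1 names TUBB2A together with TUBB2B. TUBA1A and TUBB had been seen lower in sorted cells when the group was chosen, so the differences below are a description of 2 arrays and not a test.

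The 2 samples are YB2/0 cells, an established rat myeloma line grown in conventional culture, with no treatment listed for either. The control sample is labelled as control cells, which the paper's text calls untransfected. The other is labelled as sorted cells. In the study, cells carrying a retroviral cDNA library of human umbilical vein endothelial cells were stained with patient IgG, sorted over several rounds and cloned, and neither label names the serum or the clone. The arrays were run as a further check of the human cDNA in the cloned cells, which had been sequenced before. For such cDNA the human probes match, whereas rat transcripts are read only where they hybridise. With 1 array per condition, the human cDNA library, the passage through sorting, the clone or clones and the array run cannot be told apart. Whether transcripts of the library add to the tubulin signals was not tested.

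Microtubules are hollow polymers of alpha and beta tubulin dimers, and they form the mitotic spindle and the tracks of intracellular transport. Gamma tubulin sits in a ring complex from which new microtubules grow. The isotypes of each class are encoded by separate genes with very similar coding sequence and differ most at the C-terminal tail. TUBB3 is best known from neurons, TUBA1A from the developing brain, and TUBA1B, TUBA1C, TUBB and TUBB4B are found in most dividing cells. Cells also adjust tubulin mRNA to the amount of unassembled dimer, by degrading the mRNA while it is translated.

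The start regions of 4 rat genes for alpha and beta tubulins are shown as examples. They are the rat counterparts of TUBA1A, TUBA1B, TUBB (Tubb5 in rat) and TUBB4B. Each is 250 bases before to 50 bases after the gene start from RefSeq, build GRCr8, printed 5′ to 3′ along the gene's strand. Capitals mark the CCAAT motif, searched as CCAAT on both strands. The sequence is that of the reference rat and was not read from these cells.
Tuba1a, chr7:131995770-131996069, minus strand: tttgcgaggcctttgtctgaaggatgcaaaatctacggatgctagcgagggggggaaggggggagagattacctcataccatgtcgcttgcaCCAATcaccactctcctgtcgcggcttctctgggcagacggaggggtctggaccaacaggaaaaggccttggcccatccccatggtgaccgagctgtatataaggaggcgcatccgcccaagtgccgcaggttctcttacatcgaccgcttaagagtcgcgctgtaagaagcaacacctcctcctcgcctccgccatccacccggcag
Tuba1b, chr7:131972538-131972837, minus strand: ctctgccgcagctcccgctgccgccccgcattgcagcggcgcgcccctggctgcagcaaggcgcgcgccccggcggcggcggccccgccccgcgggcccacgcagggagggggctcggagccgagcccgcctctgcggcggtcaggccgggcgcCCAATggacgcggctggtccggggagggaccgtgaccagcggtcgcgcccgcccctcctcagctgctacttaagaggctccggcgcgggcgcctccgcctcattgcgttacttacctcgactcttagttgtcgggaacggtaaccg
Tubb5, chr20:2917327-2917626, plus strand: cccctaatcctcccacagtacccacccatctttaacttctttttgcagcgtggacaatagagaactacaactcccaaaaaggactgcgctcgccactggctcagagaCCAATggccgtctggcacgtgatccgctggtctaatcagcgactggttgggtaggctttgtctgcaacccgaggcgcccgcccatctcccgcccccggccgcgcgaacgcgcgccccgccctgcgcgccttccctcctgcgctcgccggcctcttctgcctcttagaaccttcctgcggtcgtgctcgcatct
Tubb4b, chr3:28438406-28438705, minus strand: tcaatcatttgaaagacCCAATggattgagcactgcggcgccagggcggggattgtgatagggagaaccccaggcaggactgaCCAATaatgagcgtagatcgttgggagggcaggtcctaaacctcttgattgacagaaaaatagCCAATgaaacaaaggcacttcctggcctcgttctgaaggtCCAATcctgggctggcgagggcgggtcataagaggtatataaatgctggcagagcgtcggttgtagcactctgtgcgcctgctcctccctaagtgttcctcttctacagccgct

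All 10 rat tubulin genes matched an entry by symbol. CCAAT occurred on either strand in 8 of them, and in 37.7% of 27457 rat start regions of the same length. Tubb4b held 4 copies, and Tuba1a, Tuba1b and Tubb5 held 1 each. The copy began 158 bases before the start in Tuba1a, 96 bases before it in Tuba1b and 143 bases before it in Tubb5. The GC box GGGCGG, also searched on both strands, occurred in 9 of the 10 and in 34.9% of all start regions. Tuba1b and Tubb5 held 3 copies of it each, Tubb4b 2 and Tuba1a 1. Tuba1b and Tuba1a are direct neighbours among the protein-coding genes of rat chromosome 7.

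The values are MAS5 signals, an intensity on a linear scale, and each comes with the authors' call on detection: Present, Marginal or Absent. In control cells 9.02% of probe sets were Present and in sorted cells 8.33%. PROCR, the gene of the protein C receptor, was 186 (Absent) on the control array and 528933 (Present) on the sorted one, which bears out the label of the sorted sample. SCARB1 probe set 201819_at likewise had 99.9 (Absent) and 61076 (Present). The paper recovered PROCR and SCARB1 from different clones. The label does not say whether the sorted sample is a single clone or a mixture. Of 13 markers of plasma cells and B cells, 3 were Present at their brightest probe set and 10 were not. SDC1, the plasma cell surface proteoglycan, was Present on both arrays at 3390 and 4206. CD27, a receptor of memory B cells and plasma cells, was lower, with 1353 (Present) on the control array and 253 (Absent) on the sorted one. PRDM1, a regulator of plasma cell identity, had 1850 (Present) and 1113 (Marginal). Of 8 endothelial cell markers, 0 were Present at their brightest probe set, and a dimmer probe set of ERG was Present in sorted cells at 684.

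The detected tubulins differed between the arrays mostly by under 2-fold, with 1 large exception, TUBA1A, described below. Of the 20 probe sets that name 1 tubulin, 14 were Present on both arrays, 1 (TUBA1A, an alpha tubulin, far lower in sorted cells) in control cells only and 5 on neither. Among those Present on both, all 8 of alpha tubulins had a log2 ratio of sorted over control above 0, from 0.04 to 1.13, and all 6 of beta tubulins had one below 0, from -1.10 to -0.04. Their medians were 0.21 for alpha and -0.47 for beta. The beta values include the 2 probe sets of TUBB, which had been seen lower when the group was chosen. TUBA1A is left out of these counts by the detection call itself, so they do not describe all alpha probe sets. Over all 2556 probe sets Present on both arrays the median log2 ratio was 0.11, and 42.5% lay below 0. Set against that median, 6 of the 8 alpha probe sets lay above it and the 2 of TUBA1C lay below it, while all 6 of beta tubulins lay below it. Quantile normalization and centring each took both TUBA1C probe sets to just under 0.

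Probe sets of 1 class are not independent readings. Of the 14 Present on both arrays, 13 end in _x_at, which marks probes that can also bind similar transcripts, and TUBA4A has the only one without such a mark. An alpha probe set may therefore read several alpha isotypes, and the same holds for beta. The isotype names below are those of the annotation.

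**Figure D1:**
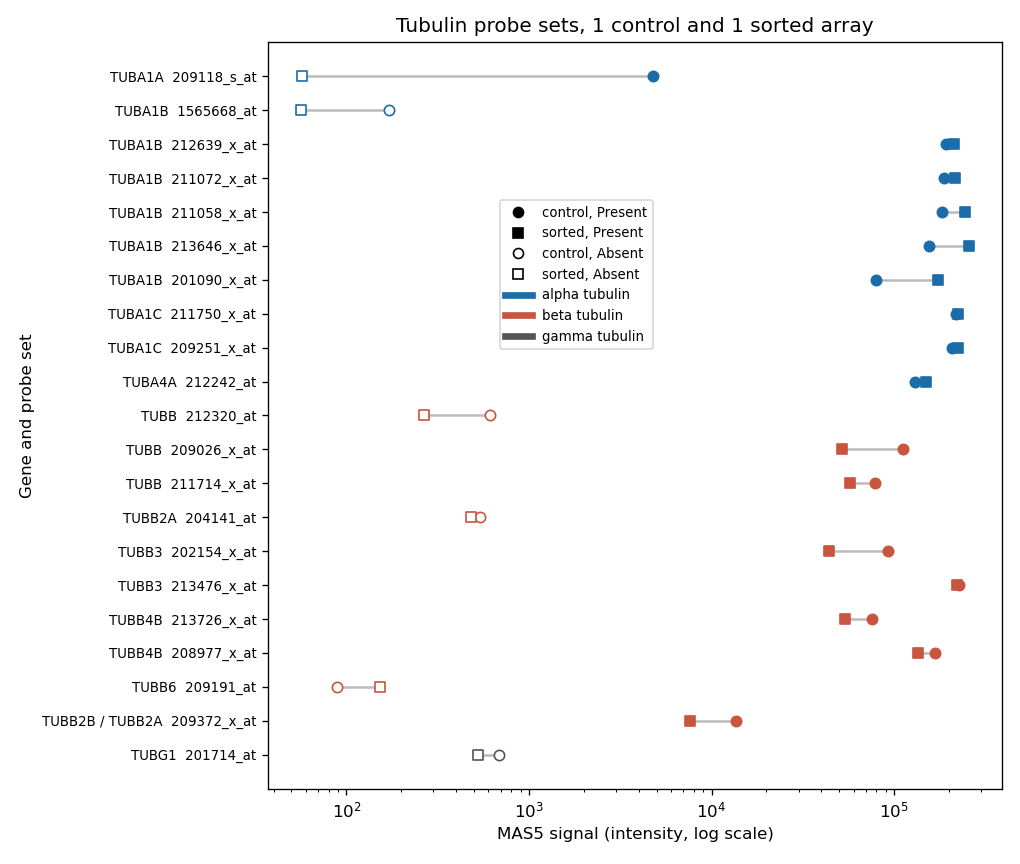
MAS5 signal (horizontal axis, intensity on a log scale) of all 21 tubulin probe sets, 1 control array (circles) and 1 sorted array (squares), filled where Present and open where Absent. The alpha probe sets Present on both arrays have their square at or to the right of the circle, the beta ones at or to its left, and TUBA1A drops from 4778 to 57.1.

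For counting, higher meant Present in sorted cells with a signal at least 2-fold above the control, and lower meant Present in the control with a signal at least 2-fold above that of sorted cells. By this rule 1 of the 20 was higher and 3 were lower, all of them among the 15 Present on at least 1 array. Among all probe sets 1.61% were higher and 1.77% lower, and among those Present on at least 1 array, the fairer comparison for genes that are detected, 12.9% were higher and 14.1% lower. Among probe sets Present on both arrays 6.34% were higher and 4.15% lower, and of the 14 tubulin ones 1 was higher and 2 were lower. Because the group was chosen with part of this contrast known, nothing is read from these shares.

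TUBA1A encodes the alpha tubulin of growing neurons and is read by a single probe set, 209118_s_at. The control array read 4778, Present with a detection p-value of 0.00122, and the sorted array read 57.1, Absent with a detection p-value of 0.601. The sorted array thus gave no detectable signal where the control array did. Where 1 array is Absent, the text gives a fold as "at least" by 1 convention, in which a dim signal below the lowest Present signal of its array is replaced by that signal. The replacement was 148 in control and 159 in sorted cells, many Absent signals lie above these, and a higher floor gives smaller folds. By this convention TUBA1A was at least 30.0-fold lower in sorted cells. With dim signals raised to the median of Absent probe sets the fold was 20.2, a log2 ratio of -4.34. The other 8 alpha probe sets Present in control cells had log2 ratios above 0, and TUBA1A has no further probe set here by which the difference could be checked. In RNA of a whole culture, fewer cells with a transcript and less of it per cell cannot be told apart.

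TUBA1B, a ubiquitous alpha tubulin, is read by 6 probe sets. Probe set 201090_x_at had 79861 in control cells and 174823 in sorted cells, a log2 ratio of 1.13, and was the only tubulin probe set counted as higher. Probe set 213646_x_at had 155634 and 256146, a log2 ratio of 0.72. For 211058_x_at the signals were 182182 and 243492, for a log2 ratio of 0.42. The other 2 Present probe sets hardly differed, with 188088 and 216657 for 211072_x_at (0.20) and 193384 and 212252 for 212639_x_at (0.13). All 5 log2 ratios were above 0, 1 of them past 2-fold, and they spread over 0.996 for the same annotated gene. The sixth, 1565668_at, was Absent on both arrays at 171 and 56.6.

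TUBA1C and TUBA4A, alpha tubulins of many tissues, were close to equal on both arrays. The TUBA1C probe sets had 208410 in control and 222910 in sorted cells for 209251_x_at and 218313 and 224228 for 211750_x_at. TUBA4A had 129439 and 149602 at 212242_at, a log2 ratio of 0.21. The hybridisation spikes, added in fixed amounts to each sample, had log2 ratios of -0.58 to 0.57 over 18 probe sets, and these 3 lay within that range. So did 10 of the 14 tubulin probe sets Present on both arrays. The 4 outside it were 201090_x_at and 213646_x_at of TUBA1B, 209026_x_at of TUBB and 202154_x_at of TUBB3.

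TUBB, the main beta tubulin of dividing cells, is read by 3 probe sets. Probe set 209026_x_at had 111763 in control and 52072 in sorted cells, 2.15-fold lower, and 211714_x_at had 78570 and 57452, 1.37-fold lower. The 2 probe sets pointed the same way, and only the first passed 2-fold. The third, 212320_at, carries no suffix for shared probes and was Absent on both arrays, at 612 and 266.

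TUBB3, the neuronal beta tubulin, gave 2 discordant readings. Probe set 202154_x_at had 93118 in control and 44148 in sorted cells, 2.11-fold lower. Probe set 213476_x_at had 227542 and 221843, a log2 ratio of -0.04. The probe sets of this 1 gene thus differed by 1.04 on the log2 scale, as much as the difference between the arrays at the first.

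TUBB4B, a beta tubulin of most tissues, was lower at both probe sets but under 2-fold. The signals were 168314 in control and 134531 in sorted cells at 208977_x_at and 75365 and 53696 at 213726_x_at, with log2 ratios of -0.32 and -0.49. The probe set that names TUBB2A and TUBB2B, 209372_x_at, had 13705 and 7645, a log2 ratio of -0.84. It lay in the direction of the other beta probe sets, and its 2 genes cannot be told apart by it. The alpha probe sets that name TUBA3C with TUBA3D, described below, had log2 ratios of 0.10 and -0.16.

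TUBB2A alone, TUBB6 and TUBG1 were detected in neither sample. The signals in control and sorted cells were 538 and 481 for TUBB2A (204141_at), 89.4 and 153 for TUBB6 (209191_at) and 689 and 524 for TUBG1 (201714_at), all Absent. No level of the gamma tubulin can therefore be given from these arrays, and an Absent call of a human probe set on rat RNA does not show that the gene is silent.

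**Figure D2:**
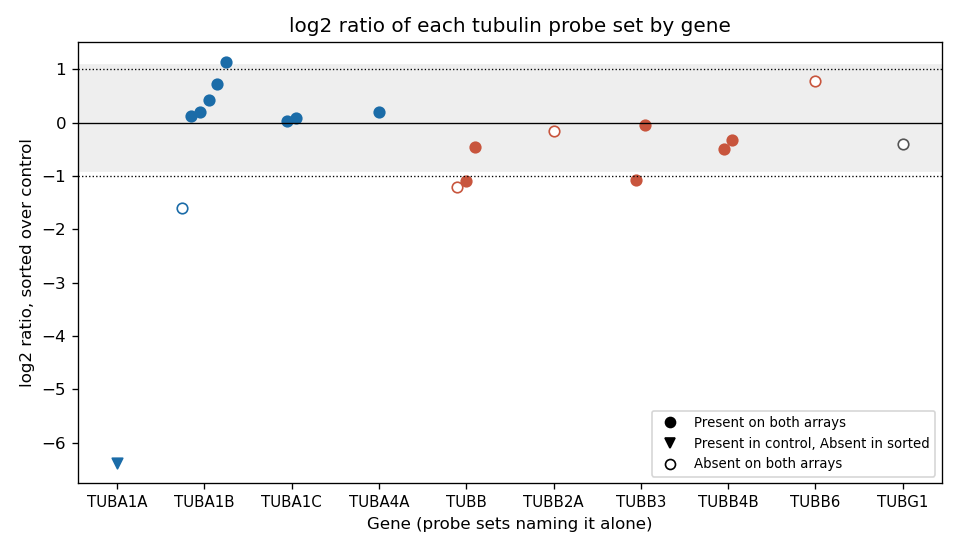
log2 ratio of sorted over control signal (vertical axis) for the 20 probe sets that name 1 tubulin gene (horizontal axis), filled where Present and open where Absent on both arrays, with a triangle for TUBA1A, whose value is taken against an Absent signal. The grey band holds the middle 90% of probe sets Present on both arrays (-0.90 to 1.09), and 201090_x_at of TUBA1B, 209026_x_at of TUBB and 202154_x_at of TUBB3 lie just outside it.

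The tubulin probe sets Present on both arrays were very bright, with signals of 44148 to 256146 against an array maximum of 629944 in control and 811012 in sorted cells. Brightness differs between probe sets for reasons other than RNA amount, so it was used only to choose a background of similar signal. Among 158 probe sets Present on both arrays with a geometric mean signal of at least 50000, which include these 14, the median log2 ratio was 0.33, 8.23% were higher and 5.06% were lower by the 2-fold rule, and 47 lay below 0. The beta tubulins gave 6 of these 47, and 2 of the 6 are probe sets of TUBB, seen lower when the group was chosen. Among the 68 bright probe sets ending in _x_at, the median was 0.17 and 22 lay below 0. The alpha median of 0.21 was thus under the 0.33 of all bright probe sets and above the 0.17 of those ending in _x_at. The beta median of -0.47 was below both.

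**Figure D3:**
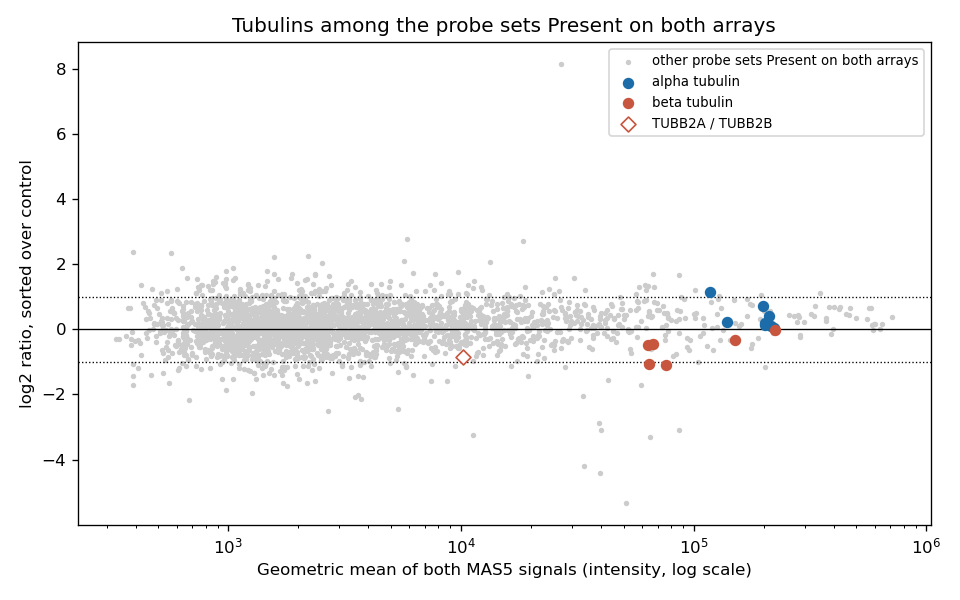
log2 ratio of sorted over control signal (vertical axis) against the geometric mean of both signals (horizontal axis, log scale) for probe sets Present on both arrays, with alpha tubulins in blue, beta tubulins in red, TUBB2A with TUBB2B as an open diamond, and dotted lines at 2-fold. The 6 filled beta points, all of probe sets ending in _x_at, lie below 0. At a geometric mean signal of at least 50000 the median of all probe sets, tubulins included, is 0.33. It is 0.17 for those ending in _x_at.

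Control probe sets of other RNAs also differed between the arrays, those of actin and GAPDH in the direction of the beta tubulins. The 3 for actin had log2 ratios of -0.73 to -0.24 and the 3 for GAPDH -0.93 to -0.20, and all 6 were below 0. The 3 for 18S rRNA had 0.67 to 0.85. The polyA spikes, added before labelling, had a median of -0.48 over 24 probe sets, with a range of -0.87 to 0.90. The part of labelling and RNA composition in the tubulin values was not tested.

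Of 13 further tubulin genes, 9 had a probe set of their own and 1, TUBA4B, was Present at it, with 1441 (Absent) in control and 1760 (Present) in sorted cells. TUBA3C and TUBA3D, alpha tubulins of the testis, share 2 probe sets that were Present on both arrays. Their signals in control and sorted cells were 9796 and 10474 at 210527_x_at and 7441 and 6649 at 216323_x_at. Neither reached 2-fold, and the 2 differed in direction, with log2 ratios of 0.10 and -0.16. The second thus lay below 0, unlike the alpha probe sets counted above, which each name 1 gene.

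New tubulin is folded by prefoldin and the chaperonin CCT and then joined by the cofactors TBCA to TBCE. Of 23 such genes 20 had a probe set of their own and 9 were Present on at least 1 array at the brightest one. There, 1 was higher, 2 were lower and 6 were neither, with a median log2 ratio of -0.05. Over the 3810 genes Present in this way the median was 0.06, and 10.5% were higher and 10.8% lower. The gene lists below are read beside these values.

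Of the cofactors TBCA to TBCE, TBCA and TBCB were Present on at least 1 array. TBCA, which captures beta tubulin, had 2033 (Present) in control and 555 (Absent) in sorted cells, at least 3.66-fold lower. TBCB, which binds alpha tubulin, had 2138 (Absent) and 5952 (Present) at 211759_x_at, at least 2.78-fold higher. Its dimmer probe set 201804_x_at was Present on both arrays and nearly equal, at 1720 and 1768. The chaperonin subunit CCT3 was lower, from 2048 to 987. CCT4 had 13111 in control and 19130 in sorted cells, and CCT2 had 5329 and 8412, while a dimmer CCT2 probe set, 201946_s_at, was lower, from 1175 (Present) to 568 (Absent). The chaperonin subunits thus showed no common direction.

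The gamma tubulin ring complex, from which microtubules grow, had 11 of 12 genes with a probe set of their own. Of these, 4 were Present on 1 array each at the brightest probe set, with a median log2 ratio of 0.19. NEDD1, which anchors the complex at the centrosome, was higher, with 391 (Absent) in control and 870 (Present) in sorted cells. TUBGCP2, TUBGCP4 and TUBGCP6, which bind gamma tubulin in the ring, differed by under 2-fold. The probe sets 212995_x_at and 213166_x_at name MZT2A and MZT2B, small subunits of the ring. The first also names PHGDH and the second MIR4784. They had 202 and 124 in control cells, both Absent, and 191314 and 89722 in sorted cells, both Present. By the convention above they were at least 947-fold and 605-fold higher. With dim signals raised to the median of Absent probe sets the folds were 798 and 374. Since each names several genes, neither is a value of MZT2A alone or of MZT2B alone.

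Enzymes that modify tubulin, with TTC5, which starts the decay of tubulin mRNA, were listed as 22 genes, and 2 were Present at the brightest probe set. SIRT2, a deacetylase that acts on alpha tubulin, had 4411 (Present) in control and 1730 (Absent) in sorted cells, at least 2.55-fold lower. TTLL12, of the tubulin ligase family, had 1950 and 3308, both Present. TTC5 itself was not Present, so no value bears on it.

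Of 26 genes for microtubule-associated and severing proteins, 25 had a probe set of their own and 9 were Present at the brightest one, with a median log2 ratio of -0.65. STMN4, a stathmin that binds free tubulin dimers, was higher, from 125 (Absent) to 1678 (Present), at least 11.3-fold by the convention above and 7.0-fold with the raised floor. MAP1S, a microtubule-associated protein, was lower, with 1556 (Present) and 312 (Absent), at least 4.99-fold. MAPRE1, which tracks growing plus ends, had 12357 and 13111 at its brightest probe set, while the dimmer 200712_s_at was higher, from 917 (Absent) to 2053 (Present). KIF2C, a kinesin that takes microtubules apart, had 3355 and 1958. Of the 9 genes, 1 was higher, 1 was lower and 7 were neither. Among all 3810 genes Present at their brightest probe set, 10.5% were higher and 10.8% lower, with a median of 0.06.

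Of 23 motor genes, 9 were Present at the brightest probe set, with a median log2 ratio of 0.09. There, 2 were higher, 1 was lower and 6 were neither, beside the same 10.5% and 10.8% over all such genes. KIF3A, a subunit of kinesin-2, was higher, with 513 in control and 1434 in sorted cells. PAFAH1B1, the dynein regulator LIS1, was higher at 200815_s_at, from 9159 to 19139, but had 2457 and 2183 at 200816_s_at. DYNLT1, a dynein light chain, was lower, from 1789 to 764. DYNLL2, another dynein light chain, had 13977 and 14841. Dimmer probe sets of NDE1 and KIF5B also passed 2-fold, NDE1 as higher and KIF5B as lower, whereas the brightest KIF5B probe set had 5270 and 7644. Probe sets of 1 gene again differed in direction.

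**Figure D4:**
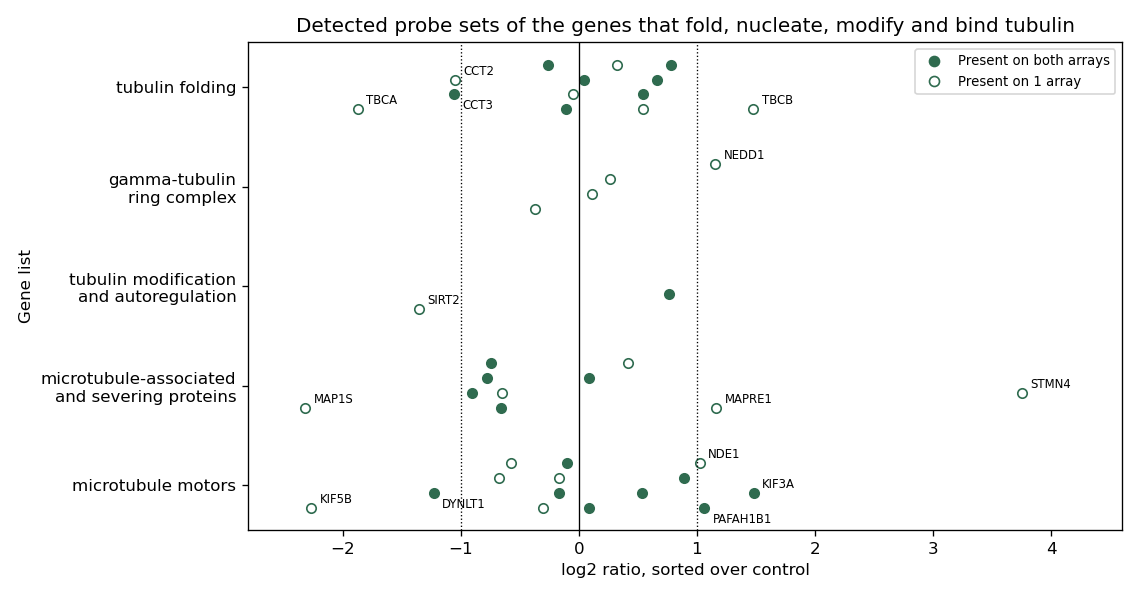
log2 ratio of sorted over control signal (horizontal axis) for each probe set naming 1 gene and Present on at least 1 array, by gene list, filled where Present on both arrays, with names for those counted as higher or lower and dotted lines at 2-fold. Each of the 5 lists plotted has points on both sides of 0, and among these points STMN4 at 3.75 and MAP1S at -2.32 are the highest and the lowest, both Present on 1 array.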

How the data were processed

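Total RNA of 1 control and 1 sorted sample of YB2/0 cells was read on 1 Affymetrix array each. The files deposited by the authors give a MAS5 intensity scaled per array, a call on detection and its p-value. Affymetrix Expression Console is named, without a version, by the submitters' processing notes. The series' own value table differed from the deposited intensity by at most 0.00050%. Gene names are those of the array annotation. Samples were grouped by their titles.

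Both signals, both calls and the log2 ratio of sorted over control were taken as deposited, using numpy 2.4.6 and pandas 2.3.3 in Python 3.11.15, and drawn with matplotlib 3.10.9. The counting rule was tested on simulated data, with ratios well past 2-fold planted in probe sets Present on both arrays. Ratios near 2-fold and probe sets Absent on 1 array were not planted. All probe sets of the 10 tubulins are given, those that name several genes apart. Of each other list, the text names genes past 2-fold at the brightest probe set, then the 2 brightest Present on both arrays. Members, lists and rules were chosen with earlier results of these data known. The bright background was chosen after its values had been seen. Alternatives were quantile normalization, centring, the value table, a floor on dim signals, other detection and probe set choices, and a 4-fold rule. Precision is limited by having 1 array per condition, and no test was possible.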

Additional observations from a re-analysis of the deposited data

How the results depend on the processing

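No paired analysis was possible because each condition has 1 array, and for the same reason no array could be left out. Of the tubulin probe sets, 1 higher and 3 lower ones were counted under quantile normalization, centring, the value table and the raised floor. A 4-fold rule left 0 higher and 1 lower, TUBA1A, because it asks for a larger difference. With gene-specific probe sets only there were 0 higher and 0 lower, because each of those counted ends in _x_at or, for TUBA1A, in _s_at, and was left out. With no detection call required there were 5 lower, the added ones being Absent on both arrays. The alpha median lay between 0.09 and 0.21 and the beta median between -0.58 and -0.32 in the alternatives run on them. The alpha median included TUBA1A except with probe sets Present on both arrays only and with gene-specific ones only. In the gene-specific setting it rested on 1 probe set, that of TUBA4A. With gene-specific probe sets no beta median could be given, and none could be given for gamma tubulin. Both TUBA1C probe sets turned under 0 with centring (-0.01 and -0.07) and with quantile normalization (-0.01 and -0.09), and TUBB6, Absent on both arrays, did so with the raised floor (-0.02). Of the 20 probe sets, 3 moved with the raised floor by more than 0.33, the SD of the hybridisation spikes. Detection limits what these arrays show, since Absent probe sets carry no measured difference.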

Other observations

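The array also carries probe sets for human tubulin pseudogenes, which were looked at after the other values had been seen. The signals in control and sorted cells were 224 and 149 for TUBB7P, 512 and 194 for TUBBP5 and 314 and 470.5 for TUBA3FP, all Absent. RefSeq lists 30 tubulin pseudogenes in the rat, and whether any of their transcripts reaches the _x_at probe sets was not tested.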
